A study of Mus musculus with 24 samples.

Results

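Genes whose expression moved in opposite directions between terminal end buds and ducts in basal and in luminal cells of the pubertal mouse mammary gland were identified from bulk RNA-seq counts. For each gene, the change from duct to terminal end bud (TEB, the growing tip of the pubertal ductal tree) in basal cells was set against the mean of the same change over 4 sorted luminal populations. The difference between both changes was called for 4761 of 18109 genes tested, and in 2548 of these the changes had opposite signs. The description below rests on the 749 genes in which the basal change, the luminal change and their difference each passed an adjusted p of 0.05 (edgeR's quasi-likelihood test with Benjamini-Hochberg adjustment over all genes tested, which every adjusted p below refers to unless another tool is named). Of these, 297 were higher in basal TEBs and lower in luminal TEBs, and 452 were lower in basal TEBs and higher in luminal TEBs. The opposite signs are a condition of membership and are therefore not evidence by themselves.

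The series held 24 libraries in 12 groups of 2. The labels list no treatment and no age beyond puberty. Mice came from 2 reporter models: Elf5-rtTA-IRES-GFP mice, in which GFP marks cells that express Elf5, and PR-cre/Rosa26-LSL-eYFP mice, in which YFP marks cells in which the progesterone receptor-driven Cre is or was active, and their progeny. Ducts and TEBs were separated by microdissection, and lineage-negative EpCAM+ cells were sorted into a CD29hi basal gate in both models and into CD29lo luminal cells that were GFP+ or GFP- in the Elf5 model and YFP+ or YFP- in the PR-cre model. Each tissue is thus represented by 4 basal and 8 luminal libraries. GFP+ and YFP- cells are the Elf5 side of the luminal layer and GFP- and YFP+ cells its hormone-receptor side. Whether the pair of libraries in a group stems from different animals is not in the labels, and p-values therefore refer to the spread between libraries, some of which may be technical. The basal gate was not divided by a reporter, no group was without a reporter allele, and in bulk samples fewer cells of a kind and less RNA per cell cannot be told apart.

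The mammary duct is a bilayer. Basal cells are contractile and myoepithelial in the mature duct, while the outermost cells of the TEB, the cap cells, form a motile basal layer that gives rise to them. Luminal cells line the lumen, divide into Elf5-dependent progenitors and hormone-sensing cells, and fill the TEB as body cells. Fibroblast growth factor, EGF-family and Notch signals from and to the stroma steer this growth.

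Total counts of the libraries ran from 31264622 to 52495208, and 3 counts corresponded to 0.0579 to 0.0970 counts per 1000000 counts (CPM, with TMM-scaled library sizes). Basal libraries carried the basal keratin Krt14 at 345 to 3619 CPM and smooth muscle actin Acta2 at 3214 to 10229 CPM, and luminal libraries carried Krt8 at 1584 to 5241 CPM. Luminal libraries held Acta2 at 2.49 to 14.6 CPM, but Krt14 ran from 0.384 to 1115 CPM there: the GFP- duct library of replicate 2, at 1115 CPM of Krt14 and 1962 CPM of Krt5, lay above each basal TEB library in both, and the YFP- TEB library of replicate 2 held 267 and 453 CPM. Transcripts of skin keratinocytes stood apart in 2 luminal libraries. The summed CPM of 13 keratinocyte genes was 3262 in the GFP- duct library of replicate 2 and 649 in the YFP- TEB library of replicate 2, against a median of 187 over luminal ducts and 334 over luminal TEBs. Without both libraries 638 of the 749 genes kept all 3 calls.

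The difference was called for 26.3% of the genes tested. In basal cells 20.9% of genes were called higher and 22.8% lower in TEBs, and in luminal cells 20.0% were called higher and 18.6% lower. Being called in all 3 tests with opposite directions was rarer: 1.64% of genes were higher in basal and lower in luminal TEBs and 2.50% the reverse, while 3660 genes were called in the same direction in both layers. Among the 4761 genes with a called difference, 1040 moved in the same direction in both layers to unequal extents, 1968 were called in basal cells only and 908 in luminal cells only. Across all genes tested, the basal and luminal log2 changes had a Pearson r of 0.338, which is a description, since genes share libraries and are not independent.

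**Figure D1:**
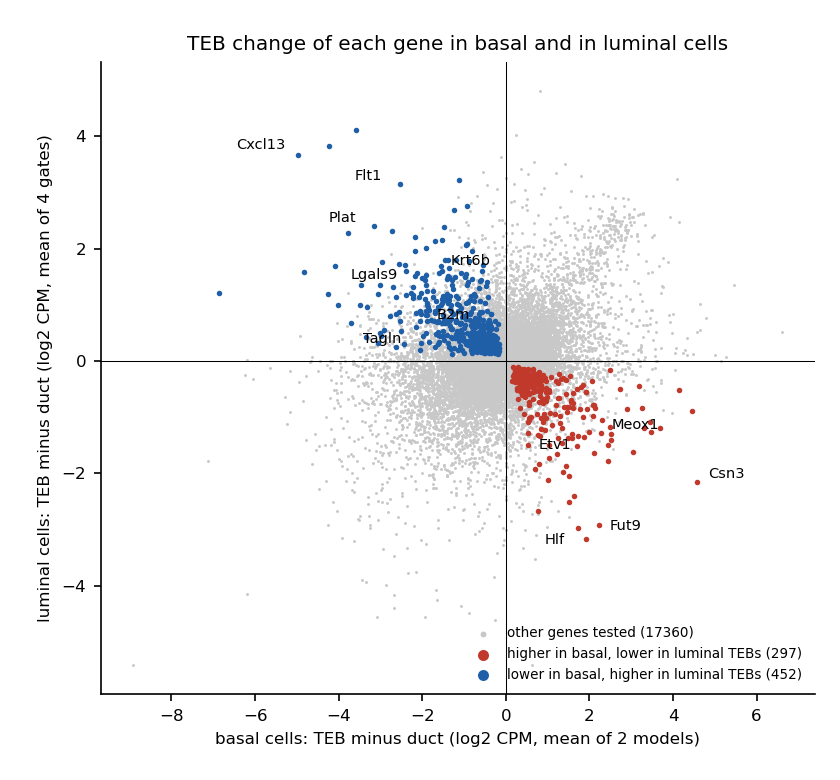
Change from duct to TEB in basal cells (x axis, difference of log2 CPM, mean of 2 models) against that in luminal cells (y axis, mean of 4 gates) for each of 18109 genes. The 297 genes called higher in basal and lower in luminal TEBs (red) and the 452 called the other way (blue) lie in the lower right and upper left, and most sit close to the centre.

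Most opposite changes were small in one layer. In 487 of the 749 genes the change was under 1.5-fold in at least one of the layers, and 127 genes changed more than 2-fold each way, 47 of them higher in basal TEBs and 80 lower. The stated sign held in both basal and all 4 luminal gates for 446 genes. In 149 genes the 2 TEB libraries did not overlap the 2 duct libraries in any of the 6 gates, which was met in either combination of directions by 0.922% of all genes tested. The genes nearest to the threshold of the difference were Arxes1, Prnp and Lgalsl just inside (adjusted p of 0.0496, 0.0496 and 0.0497) and Sv2a, Ppfia1 and 1 gene without a symbol just outside (each 0.0501).

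The 2 mouse models share no library, so genes called in one can be read in the other. Of 118 genes called higher in basal and lower in luminal TEBs from the Elf5 model alone, 76.3% had both signs in the PR-cre libraries, where 18% of all genes had them. Of 223 called the other way, 79.4% had both signs, against 17.8% of all genes. In the reverse reading, 78.9% of 166 genes and 70.3% of 239 genes called from the PR-cre model had both signs in the Elf5 libraries, against 16.2% and 18.2% of all genes. Fewer genes were called in both models. Of the Elf5-model genes, 34 of 118 and 70 of 223 were also called in the PR-cre libraries. These made up 34 of the 166 and 70 of the 239 PR-cre-model genes.

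The genes also differed in which layer expressed them in mature ducts. Of the genes higher in basal and lower in luminal TEBs, 72.7% had the higher level in luminal ducts, and of those lower in basal and higher in luminal TEBs, 72.3% had the higher level in basal ducts, where all genes tested were split at 49.5% and 50.5%. Duct levels enter the changes themselves, so the split was also read in libraries that did not choose the genes. This removes shared sampling noise only. A gene called lower in the TEBs of a layer has to be expressed in the ducts of that layer, which can carry over to the other model. The split is therefore in part a condition of membership and serves as a description. Genes called in the Elf5 model were luminal-higher in the PR-cre ducts in 76.3% and basal-higher in 70.0%, and genes called in the PR-cre model were luminal-higher in the Elf5 ducts in 59.6% and basal-higher in 70.3%. The absolute gap between the layers was narrower in TEBs than in ducts for 57.9% and 56.2% of both sets, close to the 55.4% of all genes.

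Of the 40 gene lists, the fibroblast growth factor (FGF) pathway held the most genes, by count, that rose in basal and fell in luminal TEBs. By share it was not the first, since the luminal progenitor and EGF-family lists each held 3 such genes of 16. Of all genes tested, 1.64% were called in this direction. Of 22 genes of the pathway tested, 9 were higher and 4 lower in basal TEBs, 5 were higher and 5 lower in luminal TEBs, and 4 moved in opposite directions, all as higher in basal and lower in luminal. These were Etv1, a transcription factor induced by the pathway, the feedback inhibitors Spry2 and Spry4, and Dusp6, the phosphatase that inactivates ERK. Etv1 stood at 17.3, 19, 16.5 and 12.1 CPM in basal ducts and at 22.3, 19.8, 27.8 and 23.3 CPM in basal TEBs. In luminal cells it ran from 11.4 to 20 (median 17.7) CPM in ducts and from 2.19 to 13.1 (median 6.94) CPM in TEBs. All basal TEB libraries were above all basal duct libraries, and in each luminal gate both TEB libraries were below both duct libraries. The log2 change was 0.53 ± 0.14 (SE) in basal cells (adjusted p 0.00568) and -1.49 ± 0.10 in luminal cells (2.22e-08), and the luminal change differed between the lineages by 1.86 (2.47e-05), being steeper in the GFP- and YFP+ gates.

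Spry2 was at 81.8, 88.4, 76.8 and 86.9 CPM in basal ducts and at 183, 215, 121 and 144 CPM in basal TEBs. The basal groups did not overlap, with a 1.95-fold rise (adjusted p 1.11e-05). In luminal cells Spry2 ran from 16.0 to 181 (median 55.8) CPM in ducts and from 12.7 to 129 (median 40.0) CPM in TEBs, a 1.40-fold fall (0.000438) seen in 3 of 4 gates. In the GFP+ gate, at 114 and 89.0 CPM in ducts against 93.7 and 129 CPM in TEBs, the libraries overlapped. Dusp6 rose 1.56-fold in basal TEBs (533, 709, 702 and 731 CPM in ducts, 933, 933, 1088 and 1224 CPM in TEBs, adjusted p 0.00160). It fell 1.62-fold in luminal TEBs (4.71e-05), where the steepest fall was in the YFP+ gate, from 157 and 124 CPM to 55.4 and 56.4 CPM. Spry4 rose 1.68-fold in basal cells (9.55e-06) and fell 1.21-fold in luminal cells (0.00492). None of these 4 lost a call in any of 24 fits that left out 1 library, but with 1 model alone each lost 1: in the Elf5 libraries Etv1 in basal cells (0.435), Spry2 (0.61) and Dusp6 (0.288) in luminal cells, and in the PR-cre libraries Spry4 in luminal cells (0.212).

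Kit, the stem cell factor receptor and a marker of luminal progenitors, was at 7.76, 7.23, 5.90 and 4.93 CPM in basal ducts and at 86.8, 71.7, 69.3 and 56.8 CPM in basal TEBs. This was an 11.1-fold rise (log2 change 3.47 ± 0.54, adjusted p 0.000151) with no overlap. In luminal cells Kit ran from 3.81 to 2111 (median 473) CPM in ducts and from 3.31 to 1350 (median 402) CPM in TEBs, a 2.34-fold fall (0.0130). The levels in the GFP+ gate overlapped, at 809 and 859 CPM in ducts and 834 and 773 CPM in TEBs, whereas those of the YFP- gate fell from 2015 and 2111 to 1233 and 1350 CPM. The steepest fall was in the YFP+ gate, where Kit was much lower, from 138 and 57.4 to 31.6 and 10.8 CPM. GFP- libraries overlapped, at 3.81 and 32.6 CPM in ducts and 3.31 and 5.93 CPM in TEBs. The mean luminal fall thus rested largely on gates with little Kit. Without the 2 libraries with keratinocyte transcripts the luminal change of Kit was not called (0.0679). The luminal keratin Krt18 was at 98.6 to 137 CPM in basal ducts and 9.46 to 20.4 CPM in basal TEBs, and the part of luminal cells in the basal levels of Kit was not tested.

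Of 16 EGF-family genes, 7 were higher and 3 lower in basal TEBs, 4 were higher and 6 lower in luminal TEBs, and 3 moved in opposite directions. Erbb3, a neuregulin receptor, was at 8.87, 7.93, 9.88 and 10.3 CPM in basal ducts and at 49.8, 53.5, 54.2 and 49.9 CPM in basal TEBs, with little spread in either. The rise was 5.63-fold (adjusted p 1.35e-11), beside a luminal fall of 1.12-fold from a median of 345 to 291 CPM (0.0366). That luminal call was lost in 10 of 24 fits without 1 library, with adjusted p up to 0.110. The neuregulin Nrg2 rose in basal TEBs, from 19.6, 13.9, 52.8 and 22.1 CPM to 117, 102, 90.9 and 72.3 CPM (3.77-fold, 0.00158). Its luminal fall, from a median of 2.11 to 1.48 CPM, was not called without the GFP- duct library of replicate 2 (1.00), which was 1 of the libraries with keratinocyte transcripts. Erbb4, a second neuregulin receptor, had luminal medians of 7.44 and 3.42 CPM in ducts and TEBs, and its luminal call was lost in 17 of 24 such fits.

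Notch and TGF-beta genes split between both directions. Notch1, a receptor, was at 91.8, 58.4, 110 and 81.9 CPM in basal ducts and 253, 210, 94.7 and 112 CPM in basal TEBs, so that the rise (1.82-fold, adjusted p 0.000283) lay in the Elf5 model and the PR-cre libraries overlapped. In luminal cells Notch1 fell 1.61-fold, from a median of 336 to 200 CPM (0.000114). Its YFP+ libraries overlapped, at 145 and 123 CPM in ducts and 142 and 156 CPM in TEBs. Its ligand Jag1 went the other way. Jag1 was at 169, 202, 216 and 214 CPM in basal ducts and 105, 129, 107 and 115 CPM in basal TEBs (1.75-fold lower, 0.00180), and rose 1.41-fold in luminal cells (0.00711). The luminal rise was clearest in YFP- cells, from 7.97 and 4.62 to 17.0 and 14.5 CPM. YFP+ cells held 117 and 117 CPM in ducts and 120 and 138 CPM in TEBs, and the GFP+ and GFP- libraries overlapped. Of 20 Notch pathway genes, these were the only 2 called in opposite directions. Of 29 TGF-beta and BMP genes, 3 were higher in basal and lower in luminal TEBs and 3 the reverse.

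In the TGF-beta family, Ltbp1, which binds latent TGF-beta in the matrix, rose 2.62-fold in basal TEBs (62.5, 41.0, 28.6 and 25.5 CPM in ducts and 122, 92.6, 95.0 and 84.2 CPM in TEBs) and fell 1.80-fold in luminal TEBs. That luminal fall lay in the PR-cre model. With the Elf5 libraries only, the luminal log2 change of Ltbp1 was -0.09 (adjusted p 0.84). GFP+ cells held 103 and 170 CPM in ducts and 188 and 148 CPM in TEBs. Inhbb, an activin subunit, fell 2.04-fold in luminal TEBs, from a median of 434 to 197 CPM (adjusted p 1.94e-06). Its basal rise (0.00832) was confined to the Elf5 libraries, at 6.51 and 6.71 CPM in ducts and 18.7 and 13.4 CPM in TEBs, against 7.56 and 11.3 and then 9.93 and 7.04 CPM in the PR-cre libraries. The receptor Bmpr1b rose in basal TEBs, from 5.99, 8.51, 0.247 and 0.0300 CPM to 45, 46.1, 2.29 and 2.38 CPM, and its luminal call was lost without the YFP- duct library of replicate 2 (0.495). The other 3 members went down in basal cells. The type I receptor Tgfbr1 fell 1.53-fold (0.00178) and rose 1.55-fold in luminal cells (9.18e-05). Bmp1, a procollagen-cleaving protease, fell 2.04-fold (from 257, 255, 293 and 245 CPM to 133, 143, 111 and 129 CPM) and rose 1.75-fold in luminal cells, in each of the 4 gates. Id3, a target of BMP signals that blocks helix-loop-helix factors, fell 4.15-fold in basal cells (3.64e-07) and rose 1.63-fold in luminal cells (0.000395).

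Csn3, kappa-casein, was at 27.6, 49.1, 9.38 and 10.4 CPM in basal ducts and at 787, 915, 314 and 195 CPM in basal TEBs, a 23.9-fold rise (log2 change 4.58 ± 0.42, adjusted p 1.26e-06). Its luminal libraries ran from 68.4 to 9752 (median 1184) CPM in ducts and from 9.96 to 1937 (median 587) CPM in TEBs, a 4.55-fold fall (2.34e-05). In each of the 6 gates the TEB libraries lay apart from the duct libraries, and the difference was 6.76 ± 0.51 on the log2 scale (4.87e-07). Csn3 was not typical of milk genes: of 21 milk protein and secretion genes tested, 10 were lower and 1 higher in basal TEBs, and 15 were lower and 1 higher in luminal TEBs.

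Fut9, a fucosyltransferase, was at 3.68, 4.53, 1.27 and 1.83 CPM in basal ducts and at 15.6, 12.9, 9.34 and 10.9 CPM in basal TEBs (4.76-fold, adjusted p 0.000387). It fell 8.38-fold in luminal TEBs (4.82e-06), from 89.4 and 76.3 to 12.8 and 12.2 CPM in the GFP+ gate. Enpp3, a membrane ectonucleotidase, was at 7.24, 6.14, 2.84 and 4.30 CPM in basal ducts and 45.8, 51.3, 32.2 and 34.7 CPM in basal TEBs (8.23-fold, 3.00e-06). Its luminal fall was 3.26-fold (3.16e-05), and TEB and duct libraries lay apart in each of the 6 gates for both genes. Scd1, the stearoyl-CoA desaturase, rose 2.72-fold in basal cells (0.000276) and fell 1.57-fold in luminal cells (0.00779), with the YFP- gate going against the others at 365 and 389 CPM in ducts and 403 and 425 CPM in TEBs. Aass, which starts lysine breakdown, rose 2.98-fold and fell 3.30-fold. The luminal call of Aass was lost without the GFP- duct library of replicate 2 (0.110). The organic anion transporter Slco1a5 fell 3.36-fold in luminal cells (3.65e-05) but stayed under 1 CPM in basal cells, and near-identical family members could share its reads.

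Single matrix genes, Col11a1 and Col9a1 of the cartilage type among them, also rose in basal cells. Of 35 interstitial matrix and remodelling genes tested, 8 were higher and 10 lower in basal TEBs. In luminal TEBs 9 of them were higher and 3 lower. A difference was called for 16, with the higher change in basal cells for 4 and in luminal cells for 12. Only Col9a1 and Mmp15 of that list were called in opposite directions. Col11a1, a fibrillar collagen chain, was at 366, 280, 206 and 166 CPM in basal ducts and 817, 872, 785 and 727 CPM in basal TEBs (3.26-fold, adjusted p 0.00135). The luminal libraries ran from 0.952 to 255 (median 68.8) CPM in ducts and from 0.769 to 120 (median 32) CPM in TEBs (3.20-fold lower, 0.000292). Col9a1, which decorates such fibrils, rose 4.24-fold in basal cells, from 86.1, 66.4, 52.7 and 53.4 CPM to 215, 268, 318 and 284 CPM. Its luminal fall of 2.05-fold was not called without the YFP+ duct library of replicate 1, where the log2 change was -0.7. It was also not called in the PR-cre model alone (0.128) or with the GFP+ and YFP- gates only (log2 change -0.2, 0.709). The GFP+ gate, where Col9a1 was highest in luminal cells, held 297 and 132 CPM in ducts and 221 and 186 CPM in TEBs. The membrane collagen Col25a1 rose 5.40-fold in basal cells (4.21e-05). Its luminal medians were 1.42 and 0.554 CPM in ducts and TEBs, and without the YFP+ duct library of replicate 1, where the other library was at 0, its difference was not called (1.00). The membrane protease Mmp15 rose 1.93-fold in basal cells (19.6, 16.0, 14.5 and 16.6 CPM in ducts, 35.2, 33.2, 27.8 and 32.5 CPM in TEBs, 9.07e-07). It fell 1.64-fold in luminal cells, from 247 to 462 (median 328) CPM to 177 to 239 (median 199) CPM, and here no luminal TEB library reached any luminal duct library. Fibroblast markers, 14 of 14 tested, summed to 4608 to 7024 CPM in basal ducts and 1035 to 2290 CPM in basal TEBs, and in luminal cells to a median of 183 CPM in ducts and 228 CPM in TEBs. Of the 14, 1 was called higher and 1 lower in basal TEBs, with a median log2 change of 0.50, so the sum and the median differ in sign. The part of these markers in the matrix changes was not tested.

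Regulators and other genes with large opposite changes completed the group. The homeobox factor Meox1 rose from 13.5, 15.8, 17.0 and 14.6 CPM to 63.9, 59.5, 101 and 77.2 CPM in basal cells (4.88-fold, adjusted p 7.10e-06). In luminal cells it was near the floor of 3 counts, at 0.0317 to 0.588 CPM in ducts and 0 to 0.0772 CPM in TEBs, and its luminal call was lost without the GFP+ duct library of replicate 1 (0.0527). Hlf, a PAR-bZIP factor, rose from 11.5, 20.4, 8.55 and 10.0 CPM to 46.4, 39.5, 41.1 and 33.0 CPM in basal cells (3.28-fold, 0.0178) and fell 10.1-fold in luminal cells (6.67e-05). That mean was driven by gates with little Hlf, such as GFP- cells, at 1.96 and 28.5 against 0.0513 and 0.153 CPM. Where Hlf was higher it fell less, from 105 and 76.2 to 29.5 and 17.9 CPM in GFP+ cells. In YFP- cells Hlf went from 69.6 and 54.0 to 29.8 and 29.5 CPM. The basal call of Hlf was lost without the basal Elf5 duct library of replicate 1 (0.0640) or the basal PR-cre duct library of replicate 1 (0.0569). The RNA-binding protein Celf2 rose from 90.1, 81.0, 66.6 and 60.1 CPM to 294, 257, 227 and 204 CPM in basal cells and fell 2.66-fold in luminal cells (4.48e-05), apart in each of the 6 gates. The fall of Celf2 was steep in YFP+ cells, from 13.5 and 8.79 to 2.13 and 1.06 CPM. Where Celf2 was higher it fell less, from 81.0 and 90.1 to 63.5 and 71.7 CPM in GFP+ cells. In YFP- cells Celf2 went from 138 and 127 to 74.4 and 82.9 CPM. Mest, an imprinted gene expressed from the paternal allele, rose 17.7-fold in basal TEBs, from 33.9, 33.6, 14.7 and 18.5 CPM to 729, 636, 289 and 224 CPM (2.08e-10). Its luminal levels were low in both tissues, with medians of 6.44 and 4.20 CPM in ducts and TEBs (0.00269), and the GFP+ gate did not fall.

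The guidance cue Ntn1 rose 2.03-fold in basal cells (from 9.58, 16.2, 7.19 and 7 CPM to 24.2, 21.8, 16.5 and 16.3 CPM) and fell 2.91-fold in luminal cells in each gate (adjusted p 0.000110). Its basal call was lost without the basal Elf5 duct library of replicate 1, where the log2 change was 0.91. It was also lost in the Elf5 model alone (0.17) and in the PR-cre model alone (0.0782). With the GFP+ and YFP- gates only, the luminal change of Ntn1 was not called (0.0852). Slit2, a cue of another family, did the reverse: it was at 84.3, 84.6, 74.9 and 95.1 CPM in basal ducts and 27.6, 34.3, 32.8 and 36.8 CPM in basal TEBs (2.58-fold lower, 0.00325). In luminal cells Slit2 had medians of 0.968 CPM in ducts and 3.50 CPM in TEBs (0.000569). Extl1, a heparan sulfate glycosyltransferase, rose 2.94-fold in basal cells and fell 4.17-fold in luminal cells, with a fall from 282 and 264 CPM to 62.6 and 52.9 CPM in the GFP+ gate. The endocytic ATPase Ehd3 rose 2.79-fold and fell 2.86-fold. Pcdhac2 rose 3.92-fold and fell 11.5-fold, but it shares its last exons with the protocadherin alpha cluster, so its counts are uncertain. The lysosomal membrane protein Elapor1 fell in luminal cells from 17.7 to 62.6 (median 32.2) CPM to 1.72 to 14.3 (median 7.86) CPM without overlap. In basal cells Elapor1 stayed under 1 CPM, and that call was lost without the basal Elf5 library of replicate 2 from ducts (0.0724) or TEBs (0.122).

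**Figure D2:**
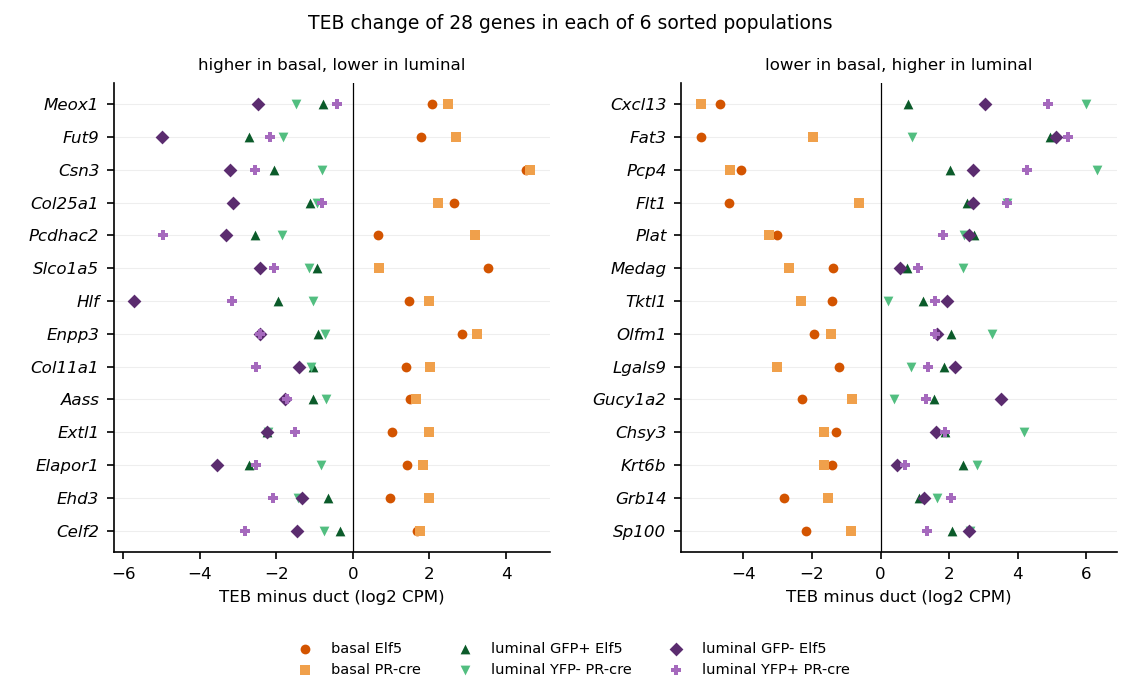
TEB minus duct difference of log2 CPM (x axis) in each of the 6 sorted populations for the 14 genes with the largest opposite changes in each direction (rows). By the rule of choice the 2 basal gates (orange) and the 4 luminal gates (green, purple) lie on opposite sides of 0, and the spread among luminal gates is wide for Hlf, Cxcl13 and Pcp4.

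Contractile genes made up the largest list count lower in basal and higher in luminal TEBs, a direction called for 2.50% of all genes tested. Of 19 smooth muscle contraction genes, 18 fell and 0 rose in basal TEBs, while in luminal TEBs 5 rose and 8 fell. The 5 that went in opposite directions were Tagln, Tpm1, Tpm2, Cald1 and Smtn, all of which bind actin filaments or regulate their pull. Tpm1, a tropomyosin, was at 2547, 2543, 2196 and 2298 CPM in basal ducts and at 1469, 1673, 1274 and 1306 CPM in basal TEBs. In luminal cells it ran from 173 to 332 (median 246) CPM in ducts and from 296 to 540 (median 468) CPM in TEBs, and in each gate the TEB libraries lay above the duct libraries. The fall was 1.68-fold (adjusted p 2.52e-06) and the rise 1.71-fold (9.16e-08).

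Tpm2, a second tropomyosin, fell 3.74-fold in basal cells (2385, 2301, 2440 and 2634 CPM in ducts, 450, 541, 727 and 987 CPM in TEBs). It rose 2.89-fold in luminal cells (adjusted p 9.37e-07), from 3.42 and 4.31 to 29.2 and 36.7 CPM in the GFP+ gate, with no rise in the YFP+ gate at 7.09 and 5.79 against 6.82 and 5.28 CPM. Cald1, caldesmon, fell from 1571, 1832, 1769 and 1866 CPM to 570, 698, 894 and 907 CPM in basal cells (2.33-fold, 0.000712). Its luminal rise of 2.73-fold (1.32e-05) came from the Elf5 side: 35.7 and 49.0 CPM became 325 and 343 CPM in GFP+ cells, whereas YFP+ cells held 14.3 and 9.24 CPM in ducts and 14.1 and 9.50 CPM in TEBs. Tagln, transgelin, fell 4.07-fold in basal cells (3753, 3649, 4341 and 4773 CPM in ducts, 588, 710, 1383 and 1757 CPM in TEBs). Its luminal mean change was 0.32 ± 0.08 on the log2 scale (0.00494), but the sides disagreed: with only the GFP- and YFP+ gates Tagln was called lower in luminal TEBs (-0.52, 0.00425). Smtn fell 4.18-fold in basal cells, and its luminal rise of 1.15-fold was lost in 9 of 24 fits without 1 library and with other scalings.

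The defining myoepithelial genes differed between luminal gates. Over all luminal cells Acta2 had a median of 10.6 CPM in ducts and 5.02 CPM in TEBs, Myh11 5.27 and 2.55 CPM, and Krt14 5.02 and 3.21 CPM. In the YFP- gate, however, Myh11 was at 2.32 and 1.36 CPM in ducts and 6.30 and 4.40 CPM in TEBs, Acta2 at 7.29 and 5.72 against 11.3 and 6.17 CPM, and Krt14 at 26.7 and 24.9 against 31.0 and 267 CPM. In the GFP+ gate Acta2 went from 14.6 and 9.78 to 3.18 and 3.86 CPM and Krt14 from 5.18 and 3.04 to 5.40 and 7.57 CPM. The part of basal cells in the luminal rise was not tested. The 19 contraction genes summed to 335 to 574 CPM in luminal ducts and 402 to 1026 CPM in luminal TEBs, against 35683 to 37972 CPM in basal ducts. Vim, the intermediate filament vimentin, fell 2.41-fold in basal cells (665, 842, 501 and 611 CPM to 254, 273, 275 and 274 CPM) and rose 1.81-fold in luminal cells (adjusted p 0.00205), from 9.31 and 5.16 to 30.9 and 27.6 CPM in the GFP+ gate and with overlap in the GFP- and YFP+ gates.

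MHC class I genes, whose products present peptides on the cell surface, were, of the 40 lists, the one with the largest share of called differences. Of 13 class I and presentation genes tested, 9 fell and 0 rose in basal TEBs, 8 rose and 2 fell in luminal TEBs, and 12 had a called difference, all of them with the higher change in luminal cells. The median log2 change of the list was -0.56 in basal and 0.26 in luminal cells, where all genes had medians of -0.04 and 0.00. Called in opposite directions were the heavy chains H2-K1, H2-D1 and H2-Q4 and the light chain B2m. B2m was at 265, 263, 244 and 310 CPM in basal ducts and at 203, 231, 140 and 175 CPM in basal TEBs, with no overlap. In luminal cells it ran from 194 to 701 (median 395) CPM in ducts and from 261 to 979 (median 551) CPM in TEBs, and rose in each gate. The log2 change was -0.55 ± 0.12 in basal cells (adjusted p 0.00106) and 0.57 ± 0.08 in luminal cells (4.20e-05), and from the Elf5 libraries alone the basal change was not called (0.192).

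H2-K1 was at 322, 318, 312 and 316 CPM in basal ducts and at 174, 201, 66.3 and 93.6 CPM in basal TEBs. The fall was 2.59-fold (adjusted p 1.49e-08), and the PR-cre TEB libraries were the lower ones. In luminal cells H2-K1 rose 1.25-fold (0.00103), from 700 and 743 to 1136 and 1316 CPM in the GFP- gate, with overlapping libraries at 467 and 447 against 448 and 456 CPM in the YFP- gate. With only the GFP+ and YFP- gates its luminal change was not called (0.665). H2-D1 fell 2.74-fold in basal cells (3.12e-08) and rose 1.29-fold in luminal cells (0.00102), again not called with the GFP+ and YFP- gates only (0.381). H2-Q4 fell 2.54-fold in basal cells, and its luminal call (0.0486) was lost in 19 of 24 fits without 1 library. These heavy chains are close paralogs, and reads could be divided among them in ways the sources used here do not describe.

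Interferon-linked genes shared part of the pattern. Of 22 interferon response genes, 9 rose and 4 fell in basal TEBs and 18 rose and 0 fell in luminal TEBs, so that most did not move in opposite directions; 12 had a called difference, all with the higher change in luminal cells. Called in opposite directions were Zbp1, a nucleic acid sensor, which fell 2.33-fold in basal cells (adjusted p 0.000192) and rose 1.64-fold in luminal cells (0.000526), and Stat2, whose luminal call was lost in 20 of 24 fits without 1 library. Sp100, a nuclear body protein, fell from 5.50, 5.10, 2.99 and 2.58 CPM to 1.37, 0.916, 0.926 and 2.38 CPM in basal cells (2.80-fold, 0.00331) and rose 4.21-fold in luminal cells (7.62e-06). Lgals9, the lectin galectin-9, was at 59.4, 68.5, 125 and 135 CPM in basal ducts and at 21.8, 34.8, 15.4 and 16.3 CPM in basal TEBs. In luminal cells Lgals9 ran from 17.2 to 60.1 (median 38.1) CPM in ducts and from 29.6 to 252 (median 109) CPM in TEBs, highest in the GFP- gate at 233 and 252 CPM. Duct and TEB libraries lay apart in each of the 6 gates, with a fall of 4.31-fold (1.20e-08) and a rise of 2.97-fold (1.15e-08). Immune cell markers, 16 of 17 tested, summed to 17.4 to 38.0 CPM in basal ducts and 4.65 to 9.03 CPM in basal TEBs, and to 5.90 to 17.8 and 2.23 to 9.76 CPM in luminal ducts and TEBs. The pan-leukocyte gene Ptprc ran from 0.741 to 7.54 CPM in basal ducts and from 0 to 0.243 CPM in basal TEBs. The part of these markers in the basal fall and in the luminal rise was not tested.

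The promoters of B2m and Lgals9 hold a match to an interferon-stimulated response element, and that of Cald1 a match to the AP-1 site, and they are shown because these genes stood for the immune and contractile groups. The sequences are the 250 bases before the annotated start in RefSeq (GRCm38.p6), read on the gene's own strand from 5′ to 3′, with each match in capitals. The motifs searched on both strands were TGACTCA for AP-1, TTCNNNGAA for STAT sites and, for the interferon-stimulated response element, GAAA repeated after a gap of any 2 bases. B2m lies on the plus strand at chr2:122147437-122147686, Lgals9 on the minus strand at chr11:78984925-78985174 and Cald1 on the plus strand at chr6:34709194-34709443.
B2m: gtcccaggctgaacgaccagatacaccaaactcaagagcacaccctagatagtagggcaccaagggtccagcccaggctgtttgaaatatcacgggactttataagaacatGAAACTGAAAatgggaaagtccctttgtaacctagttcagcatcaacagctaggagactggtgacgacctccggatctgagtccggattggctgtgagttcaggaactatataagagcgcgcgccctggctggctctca
Lgals9: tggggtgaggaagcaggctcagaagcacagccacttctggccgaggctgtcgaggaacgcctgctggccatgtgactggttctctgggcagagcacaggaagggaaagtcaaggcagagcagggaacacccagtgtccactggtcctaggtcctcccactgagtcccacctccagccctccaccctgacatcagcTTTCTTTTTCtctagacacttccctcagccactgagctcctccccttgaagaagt
Cald1: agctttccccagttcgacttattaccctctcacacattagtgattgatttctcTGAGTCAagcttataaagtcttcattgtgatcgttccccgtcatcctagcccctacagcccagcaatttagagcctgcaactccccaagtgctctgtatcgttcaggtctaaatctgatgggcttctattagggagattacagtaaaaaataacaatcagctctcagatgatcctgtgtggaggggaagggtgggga
Windows were held for 214 of the 297 genes higher in basal TEBs and 341 of the 452 genes lower in basal TEBs. The response element was matched in 4.21% and 3.81% of them against 3.22% of all 13236 genes with a window, AP-1 in 2.80% and 6.74% against 4.46%, and STAT sites in 6.54% and 5.87% against 7.31%. A match is a description of letters in these windows and not a bound site.

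**Figure D3:**
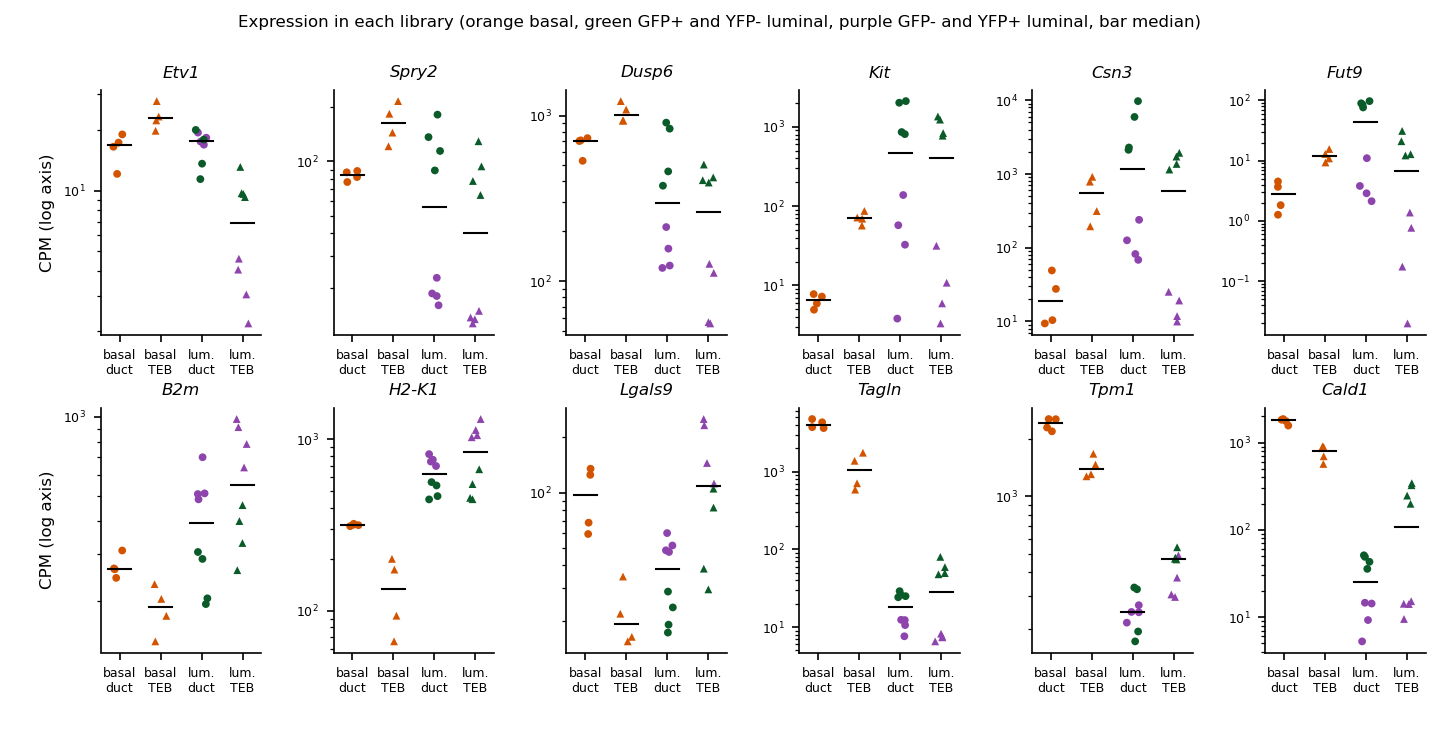
CPM on a log axis in each library for 12 genes, by layer and tissue (circles ducts, triangles TEBs), with the median as a bar and the 1 library at 0 for Fut9 drawn at 0.02 CPM. Basal TEBs lie above basal ducts for Etv1 to Fut9 and below them for B2m to Cald1. The luminal libraries move the other way in each gate for Etv1, Csn3, Fut9, B2m, Lgals9 and Tpm1. For Spry2, Dusp6, Kit, H2-K1 and Cald1, ducts and TEBs overlap in at least 1 luminal gate. Tagln moves in the basal direction in the GFP- and YFP+ gates.

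Single keratins were among the genes that fell in basal and rose in luminal TEBs, though of 20 luminal keratin and identity genes 1 was called in opposite directions. Krt7, a luminal keratin, fell 2.99-fold in basal cells (from 11.6, 11.8, 8.52 and 13 CPM to 2.22, 4.53, 2.96 and 5.39 CPM) and rose 1.60-fold in luminal cells (adjusted p 0.00496), from a median of 332 to 769 CPM. The luminal change of Krt7 was not called in the PR-cre model alone (0.199) or with the GFP- and YFP+ gates only (0.154). Other luminal keratins were also lower in basal TEBs. Krt18 was at 98.6 to 137 CPM in basal ducts and 9.46 to 20.4 CPM in basal TEBs, and Krt8 at 347 to 478 and 153 to 238 CPM. Of the 20 luminal keratin and identity genes, 10 fell and 2 rose in basal TEBs. The part of luminal cells in the basal fall of Krt7 was not tested. Krt6a, a keratin long used as a mark of TEB body cells, fell 2.12-fold in basal cells (9.28, 8.69, 9.08 and 10.5 CPM to 5.61, 5.37, 3.29 and 3.84 CPM) and rose 2.97-fold in luminal cells (2.48e-06). Its luminal level was highest in YFP+ cells, at 312 and 221 CPM in ducts and 534 and 321 CPM in TEBs, while the rise was steepest in GFP+ and YFP- cells, from 6 and 5.54 to 21.6 and 32.5 CPM in the former. Krt6b fell 2.93-fold and rose 3.01-fold; both genes are close paralogs and could share reads. Keratinocyte markers were high in 2 luminal libraries, and neither Krt6a nor Krt6b lost a call without them. With the GFP- and YFP+ gates only, where both were highest, the luminal change was not called for Krt6a (0.0633) or Krt6b (0.149). In the Elf5 model alone the basal change of Krt6a was not called (0.0558).

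Of 31 junction and polarity genes, 3 rose and 12 fell in basal TEBs and 11 rose and 2 fell in luminal TEBs, and 14 had a called difference, all with the higher change in luminal cells. Dsg2, a desmosomal cadherin, fell 1.28-fold in basal cells and rose 1.13-fold in luminal cells, the rise lying in the GFP- and YFP+ gates (a log2 change of -0.08 with the other gates only). Itgb4, the hemidesmosomal integrin, fell 3.28-fold in basal cells (164, 144, 375 and 274 CPM to 49.8, 48.4, 90.0 and 98.5 CPM, 3.36e-09) and rose 1.18-fold in luminal cells (0.0119). The luminal call of Itgb4 was lost in the Elf5 model alone (0.0804), in the PR-cre model alone (0.138) and with the GFP+ and YFP- gates only (0.833). The basement membrane collagen chain Col4a5 fell 1.80-fold in basal cells and rose 1.24-fold in luminal cells. That luminal rise was not called in the PR-cre model alone (0.0796), and with the GFP+ and YFP- gates only the log2 change was -0.07 (0.683). For the gap junction gene Gja1 the larger change was the luminal one (3.21-fold higher, 7.50e-05), and its basal call was lost in 21 of 24 fits without 1 library; Cldn10 lost its luminal call in 10 such fits.

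Several secreted proteins and receptors changed by larger factors. Cxcl13, a chemokine that attracts B cells, was at 8.10, 2.49, 17.0 and 20.5 CPM in basal ducts and at 0.200, 0.0742, 0.236 and 0.802 CPM in basal TEBs. In luminal cells it ran from 0 to 1.96 (median 0.303) CPM in ducts and from 0.203 to 38.9 (median 8.33) CPM in TEBs, highest in YFP+ cells at 38.9 and 23.7 CPM. The difference was -9.16 ± 0.94 on the log2 scale (adjusted p 5.19e-06). Plat, the tissue plasminogen activator, was at 113, 121, 141 and 164 CPM in basal ducts and 14.9, 13.8, 12.5 and 19.9 CPM in basal TEBs (8.78-fold lower, 3.93e-05). Its luminal rise of 4.93-fold (5.98e-05) was seen in each gate, for example from 0.889 and 1.30 to 7.20 and 7.71 CPM in GFP+ cells.

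The protease inhibitor Slpi showed the largest basal fall among the list genes described here: it was at 304, 436, 342 and 416 CPM in basal ducts and 0.998, 2.20, 5.54 and 7.70 CPM in basal TEBs (115-fold lower, adjusted p 3.58e-07). In luminal cells Slpi rose in GFP- cells from 197 and 48.2 to 734 and 575 CPM, and its luminal call (0.0115) was lost without the YFP- TEB library of replicate 2 (0.0615). The chemokine Ccl2 fell from 23.7, 28, 14.4 and 21.9 CPM to 4.19, 6.48, 1.97 and 4.62 CPM in basal cells. In luminal cells Ccl2 was at most 0.337 CPM in ducts and 2.56 CPM in TEBs, the latter in a GFP+ library. Olfm1, a secreted glycoprotein, fell 3.27-fold in basal cells (13, 11.2, 14.5 and 16.0 CPM to 3.04, 3.22, 4.89 and 6.19 CPM) and rose 4.50-fold in luminal cells in each of the gates (1.56e-08).

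The VEGF receptor Flt1 fell in basal cells from 9.48, 3.19, 0.525 and 0.901 CPM to 0.175, 0.247, 0.355 and 0.510 CPM (adjusted p 0.000304), with most of the fall in the Elf5 model. It rose 10.1-fold in luminal cells (1.68e-06), to 36.5 and 29.7 CPM in YFP+ and 18.9 and 34.8 CPM in GFP- TEB libraries. Eng, the TGF-beta co-receptor endoglin, fell 2.15-fold in basal cells (0.00196) and rose 1.59-fold in luminal cells (0.00660). The calls of Eng were lost in each model alone (luminal 0.5 in Elf5, basal 0.356 in PR-cre) and with the GFP- and YFP+ gates only (luminal 0.211). Pdgfrb lost its basal call in 10 of 24 fits without 1 library. Flt1, Eng and Pdgfrb are also markers of vessels and pericytes. The 15 of 15 such markers tested summed to 52.6 to 200.0 CPM in basal ducts, 45.1 to 53.5 CPM in basal TEBs, 8.79 to 187 CPM in luminal ducts and 23.9 to 215 CPM in luminal TEBs. The endothelial gene Pecam1 had medians of 3.49 and 3.26 CPM in luminal ducts and TEBs and of 8.57 and 2.22 CPM in basal ones, and it was above 0 in each library. Among basal ducts Pecam1 was at 28.9 and 12.8 CPM in the Elf5 model, whose libraries also had the highest basal Flt1. In the PR-cre model it was at 2.38 and 4.33 CPM. The summed markers were at 200 and 108 CPM in the former ducts and 52.6 and 62.1 CPM in the latter. The part of these markers in the changes of Flt1 and Eng was not tested.

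Among signalling adaptors and transcription factors, Grb14, an inhibitor of insulin receptor signals, fell 4.41-fold in basal cells (27.2, 35.4, 22.3 and 23.3 CPM to 3.37, 5.64, 5.64 and 10.7 CPM, adjusted p 8.40e-06) and rose 2.88-fold in luminal cells (7.85e-06), apart in each of the 6 gates. Gucy1a2, a subunit of the nitric oxide receptor guanylate cyclase, fell 2.96-fold and rose 3.21-fold, with the steepest rise in GFP- cells from 3.75 and 5.78 to 54.5 and 52.7 CPM. The SRY-box factor Sox4 fell 1.90-fold in basal cells (225, 277, 316 and 341 CPM to 145, 134, 158 and 170 CPM) and rose 1.79-fold in luminal cells (8.14e-07), most steeply in GFP- cells from 272 and 237 to 726 and 735 CPM. Klf5 lost its basal call in 16 of 24 fits without 1 library.

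Chsy3, a chondroitin synthase, fell 2.95-fold at under 2 CPM in basal cells (adjusted p 0.00600) and rose 5.11-fold in luminal cells (6.79e-06), to 78.7 and 81.2 CPM in YFP+ TEBs. The small calmodulin-binding protein Pcp4 fell from 6.04, 5.77, 2.62 and 4.09 CPM to 0.374, 0.247, 0.0197 and 0.316 CPM in basal cells and reached 130 and 56.2 CPM in YFP+ TEBs. Its luminal change was not called with the GFP- and YFP+ gates only (0.103) or in the Elf5 model alone (0.494). The atypical cadherin Fat3 fell from 9.58, 8.17, 13.3 and 13.9 CPM to 0.125, 0.272, 2.80 and 4.25 CPM in basal cells and reached 42.6 and 35.6 CPM in GFP- TEBs from 0.644 and 1.77 CPM in GFP- ducts. GFP+ ducts held no Fat3 count, and without the YFP- TEB library of replicate 1 its difference was not called (1.00). The transketolase-like Tktl1 and Medag had luminal medians under 1 CPM. Tktl1 lost its luminal call without the YFP+ duct library of replicate 1 (0.0504) and Medag lost a call in 19 of 24 such fits.

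Over all 40 lists, 62 of 771 genes tested were called in opposite directions, which is 8.04% against 4.14% of all genes tested. At least 1 such gene was found in 28 lists and none in 12. The lists without one included cell division, where 24 of 24 G2 and M phase genes rose in both layers with median log2 changes of 2.46 in basal and 2.29 in luminal cells. Of 24 S phase genes 21 rose in basal and 24 in luminal TEBs. Cholesterol synthesis rose in both layers (16 and 15 of 18 genes) and immediate early genes fell in both (18 and 19 of 22). These lists were put together with earlier results of the same data known, so their counts describe the genes and are not independent evidence.

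**Figure D4:**
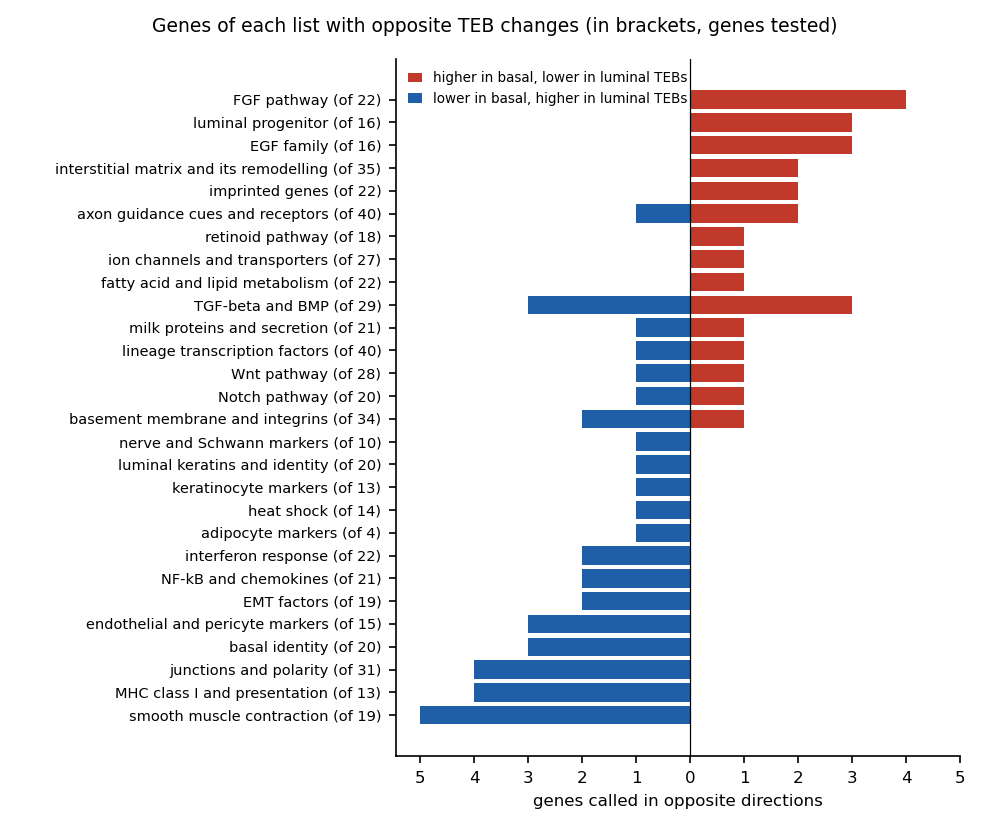
Number of genes of each list called in opposite directions (x axis, to the right higher in basal and lower in luminal TEBs, to the left the reverse), for the 28 lists with at least 1 such gene and with the number of genes tested in brackets. The FGF pathway reaches 4 on the right, and smooth muscle contraction 5 and MHC class I 4 on the left.

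The luminal part of the opposite change often depended on the lineage. The change in GFP+ and YFP- cells differed from that in GFP- and YFP+ cells for 1922 of all genes tested and for 202 of the 749 genes. With the luminal change taken from GFP+ and YFP- gates alone, 435 of the 749 genes kept all 3 calls, and with GFP- and YFP+ gates alone 454 did. For Cald1 the lineage difference was 2.33 on the log2 scale (adjusted p 0.000639), for Tagln 1.68 (8.46e-06) and for Tpm2 2.11 (0.000249), each higher on the Elf5 side. The reverse held for Zbp1 (-1.91, 0.000331) and Tgfbr1 (-1.11, 0.00181). The difference between basal and luminal changes itself differed between the mouse models for 50 of all genes tested and 12 of the 749. That count of 50 rested on single libraries: it was 24 without the basal Elf5 TEB library of replicate 2 or the basal PR-cre duct library of replicate 1, 32 or 33 without any other basal PR-cre library, and 224 or 181 without the GFP- duct library of replicate 1 or 2. Among the genes described above it held for Notch1 (0.0332) and Gucy1a2 (0.0236).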

How the data were processed

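RNA was measured in 24 libraries prepared with a kit that does not mark strand. Per the submitters' processing notes, featureCounts and the mm10 build were used; for the aligner, annotation and multi-mapped reads the methods are not given in the sources used. The deposited values are whole-number counts per gene, and single files and series table differed in 0 values. Symbols came from RefSeq for 25275 of 27179 genes and from GENCODE for 18; 1886, with 1.22% of counts, had none.

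Genes were kept by filterByExpr (minimum count 10, total 15), which left 18109. With edgeR 4.0.16 (R 4.3.3), libraries were scaled by TMM and 1 robust quasi-likelihood model with 12 group means was fitted to all 24 libraries (12 residual degrees of freedom), because pairs give little information on spread. The basal change averaged 2 groups, the luminal change 4, and their difference was tested as a contrast. Gates weighed equally in these means, also where a gene was scarce, so a fold can exceed that of the gates that express the gene. Standard errors are the log2 change divided by the square root of F. For genes with a group at 0 counts, CPM values are given, and the lineage value of Ccl2 is marked where it is listed. Log2 CPM used a prior count of 2. Checked on simulated counts for 18109 genes, opposite changes of 1 on the log2 scale each way were recovered in 79% of 100 genes and changes of 0.5 in 30%. The changed genes had a mean of at least 5 CPM, and all other genes were simulated without a TEB change. Far more genes were called in the data, which shifts the adjusted threshold, so these shares do not give the recovery there.

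Named genes are the 14 per direction with the largest smaller change among called genes with a mean of at least 5 CPM and the stated sign in all 6 gates, beside members of 40 lists called in opposite directions. Members, lists and rules were chosen with earlier results of these data known. Replicate libraries differed by more than sampling noise. DESeq2 1.42.0, limma 3.58.1, other scalings, filters and sample sets were alternatives. Reads carry no molecular identifiers, and floors cover counting error only. Results for 1 gene are not reported here.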

Additional observations from a re-analysis of the deposited data

Results flagged for a closer look

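The TEB change differed between basal and luminal cells for 4761 genes, and the luminal TEB change differed between GFP+ and YFP- cells and GFP- and YFP+ cells for 1922 genes by edgeR's quasi-likelihood test of the contrast. The basal-minus-luminal difference itself differed between the mouse models for 50 genes. Of the named genes, 2 were among these: the difference in the Elf5 model minus that in the PR-cre model was 2.01 on the log2 scale for Notch1 and -3.19 for Gucy1a2.

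The lineages differed for 28 named genes. In 17 the TEB change was higher in GFP+ and YFP- cells, by these log2 values: Hlf 3.67, Enpp3 1.79, Elapor1 1.32, Celf2 1.74, Olfm1 1.17, Krt6b 2.02, Cald1 2.33, Ccl2 6.59, Etv1 1.86, Hspb8 1.58, Krt6a 2.01, Nkd1 4.27, Ntn1 1.65, Tagln 1.68, Tpm1 0.43, Tpm2 2.11 and Vim 1.36. The YFP- duct libraries held Ccl2 at 0 and 0 CPM, so the size of its value is set by a group at 0 counts. Nkd1 was at 0.0270 and 0 CPM in these ducts, under the floor of 3 counts, and at most 1.10 CPM in luminal TEBs. The sizes of these values for Ccl2 and Nkd1 are therefore not comparable with the others. For Hlf, Enpp3, Elapor1, Celf2, Etv1 and Ntn1, which fell in luminal TEBs, the higher value is a shallower fall on the Elf5 side. In 11 genes the change was lower there: Gucy1a2 -1.38, Col4a5 -0.75, Dsg2 -0.52, H2-K1 -0.52, Inhbb -0.95, Itga2 -0.89, Mmp15 -0.67, Notch1 -0.96, Sox4 -0.77, Tgfbr1 -1.11 and Zbp1 -1.91.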

How the results depend on the processing

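The basal-minus-luminal difference of the named genes kept its sign under each setting run. Changes within 1 layer did not always do so. With the GFP- and YFP+ gates only, the luminal log2 change turned for Tagln (-0.52, past the threshold) and, not past it, for Ccl2 (-0.45), Nkd1 (-0.53) and Sema4a (0.02). With the GFP+ and YFP- gates only it turned, not past the threshold, for Zbp1 (-0.24), Dsg2 (-0.08), Col4a5 (-0.07) and H2-Q4 (-0.01). With the PR-cre libraries only, Inhbb turned in basal (-0.15) and Bmpr1b in luminal cells (0.13), and with the Elf5 libraries only Klf5 turned in basal cells (0.09), none past the threshold. The 4761 called differences became 2428 with the Elf5 libraries only, 2797 with the PR-cre libraries only and 3063 at an adjusted p under 0.01. In the same order the 297 genes higher in basal and lower in luminal TEBs became 118, 166 and 134, and the 452 lower in basal and higher in luminal TEBs became 223, 239 and 239; the model settings hold fewer libraries. The 7902 basal calls became 5265 with the PR-cre libraries. The 7003 luminal calls became 4395 with the Elf5 libraries and 4463 with the GFP- and YFP+ gates. The 50 differences between models became 292 with DESeq2, 207 without the 2 libraries with keratinocyte transcripts and 14 at an adjusted p under 0.01, and the 1922 lineage differences became 828 at that threshold. The cause was not tested. Leaving out each library in turn gave 3846 to 5561 differences, 241 to 405 and 320 to 479 opposite genes, 6669 to 8549 basal, 6154 to 7421 luminal, 24 to 224 model and 1372 to 2654 lineage calls, where the lone library of a group is assumed to vary like the others. Of the 749 genes, 397 kept their calls in every such fit. Of the 749, 624 kept all calls with RLE size factors, 658 with upper-quartile scaling, 654 with DESeq2, 707 with limma and 638 without a filter. The difference of the named genes stayed on its side of the threshold in 3214 of 3255 fits and missed it in 41. Same-numbered libraries of different gates deviated together weakly (r from 0.0034 to 0.152 over 30 pairs of groups, 4 of them over 0.1), so numbers were not taken as pairs; with the replicate block 5170 differences, 338 and 471 opposite genes, 8081 basal, 7192 luminal, 68 model and 2184 lineage calls were found. In the simulated counts, changes of 0.5 and 1 log2 each way were recovered incompletely. Few genes changed there, so that recovery does not carry over to the data. Further genes may move in opposite directions undetected, and how many is not known.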

Other observations

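Several list genes with called opposite changes were not described above. In the luminal progenitor list, Itga2, the collagen-binding integrin chain, rose 1.74-fold in basal TEBs (adjusted p 0.000121, edgeR) and fell 1.46-fold in luminal TEBs (0.000244). It was at 91.5, 79.9, 76.0 and 73.9 CPM in basal ducts and 117, 123, 161 and 161 CPM in basal TEBs, and its luminal fall lay in the GFP+ and YFP- gates. Of 16 genes of that list, 4 rose and 5 fell in basal TEBs and 0 rose and 11 fell in luminal TEBs. Impact, an imprinted gene, rose 1.39-fold in basal cells (0.00188) and fell 1.28-fold in luminal cells (0.00149).

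The hormone-sensing luminal list held no gene called in opposite directions among 17 tested. Heat shock genes fell in basal TEBs in 10 of 14 cases and rose in 2, and in luminal TEBs 3 rose and 6 fell. Of these the small chaperone Hspb8 was called in opposite directions, and its basal call was lost without the basal Elf5 TEB library of replicate 1 (0.0544), the basal PR-cre TEB library of replicate 1 (0.0609) or the basal PR-cre duct library of replicate 2 (0.0551). NF-kB and chemokine genes fell in basal TEBs in 15 of 21 cases and rose in 0, and in luminal TEBs 3 rose and 9 fell.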
